A study of Mus musculus with 3 samples.

Results

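The 40 genes described here carry glucose through glycolysis to pyruvate, decide where pyruvate goes, and branch into the pentose phosphate pathway. They were chosen by symbol and all 40 were found among the 55536 gene identifiers of the GENCODE M21 annotation, 22028 of them protein-coding. The cells were primary mouse regulatory T cells (Tregs) at 12 weeks of age, derived from activated Tregs and labelled as having experienced inflammation. Polyadenylated RNA of 1 biosample from 1 donor was sequenced as 3 libraries, called libraries 1 to 3, which are technical replicates 1 to 3 of biological replicate 1. The genotype, the inflammatory treatment, the sorting gate and any reference population are not given in the sources used here, and the sex was recorded as not collected. All 3 libraries therefore form 1 group, and the comparisons that the design allows run between genes, between transcripts of a gene, and between libraries.

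Glycolysis turns glucose into pyruvate in the cytosol and yields ATP and NADH. Pyruvate is then either reduced to lactate and exported, or carried into mitochondria and oxidised by the pyruvate dehydrogenase complex, which kinases switch off. The pentose phosphate pathway leaves glycolysis at glucose-6-phosphate and supplies NADPH and ribose. T cells raise glycolysis on activation, and Tregs are known for leaning more on mitochondrial oxidation than conventional effector T cells do.

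The libraries held 35592206, 31611422 and 37728241 gene counts. All 8 markers of Tregs and CD4 T cells that were examined (Foxp3, Il2ra, Ctla4, Ikzf2, Cd4, Cd3e, Cd3g and Trac) were detected, with summed levels of 6472 to 6739 TPM, a transcript level that is corrected for length and scaled to a fixed total per library. Library 3 stood apart through salivary gland transcripts, whose 6 markers summed to 56788 TPM there against 4.91 and 11.0 TPM in libraries 1 and 2. Because TPM values share a total, those transcripts lower every other TPM value in library 3, and leaving them out with the transfer RNA and spike-in rows multiplied TPM by 1.01, 1.01 and 1.07 in libraries 1 to 3. The 40 genes summed to 5571, 5644 and 5120 TPM as deposited and to 5611.5, 5679 and 5467 TPM after that rescaling. Among markers of other cells, 4 of 5 B cell, 1 of 2 CD8 T cell, 1 of 4 NK cell, 1 of 5 dendritic cell, 3 of 8 erythroid and platelet and 1 of 6 epithelial and stromal markers were detected. The highest of these were Epcam at 32.1 ± 5.83 TPM, Cd79b at 30.4 ± 1.49 TPM, Cd8b1 at 19.2 ± 3.73 TPM and Cd79a at 16.7 ± 1.68 TPM, and their part in the levels below was not tested. In bulk RNA such as this, fewer cells of a type and less RNA per cell cannot be told apart.

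Most of the pathway was expressed, and much of it at high levels. Of the 40 genes, 37 were detected, meaning that TPM was 1 or more in each of the 3 libraries, where 23.2% of all genes and 47.6% of protein-coding genes were. The mean level was at least 100 TPM for 16 genes, between 10 and 100 TPM for 15 and under 10 TPM for 9. Among protein-coding genes, 8.35% reached a mean of 100 TPM. The median over the 40 genes was 75.8 TPM, against 1.04 TPM over protein-coding genes and 24.1 TPM over detected genes. Together the 40 genes took 0.614, 0.618 and 0.583% of gene counts in libraries 1 to 3. Since the list holds enzymes of a pathway that nearly all cells use, these figures describe it and test nothing.

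**Figure D1:**
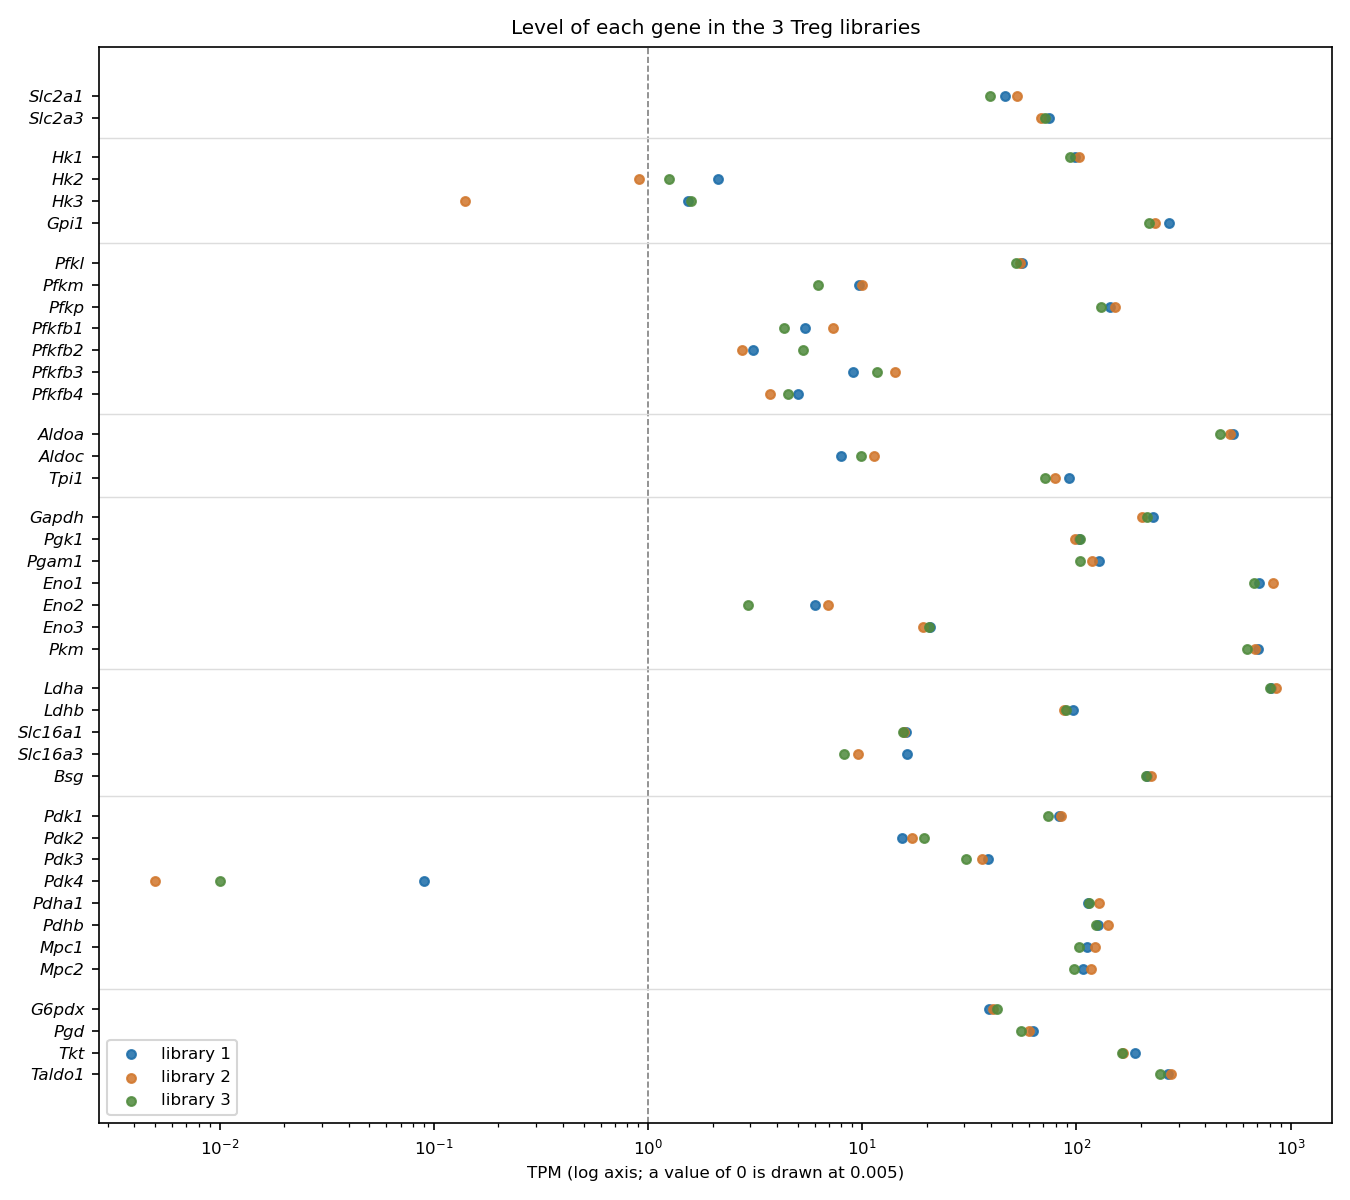
Level of each gene in TPM (log axis) in libraries 1 to 3, with 1 point per library and the genes grouped by their place in the pathway from glucose uptake (top) to the pentose phosphate pathway (bottom). The dashed line is the detection limit of 1 TPM; Hk2, Hk3 and Pdk4 have points to the left of it and the other 37 genes do not.

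Levels differed widely from step to step. Summed over paralogs, lactate dehydrogenase transcripts were highest with 911 ± 27.6 TPM (SD, n = 3 libraries, for this and all later errors), and they exceeded enolase transcripts in every library. Enolases followed with 763 ± 80.1 TPM and pyruvate kinase with 671 ± 42.0 TPM, and these neighbours overlapped over the libraries. Aldolases stood at 518 ± 36.2 TPM, below all 3 of those steps in every library. The isomerase Gpi1 at 240.5 ± 27.1 TPM, Gapdh at 215 ± 12.3 TPM and the phosphofructokinases at 205 ± 14.2 TPM came next, and each overlapped its neighbour. On transcripts annotated as protein-coding alone, Gpi1 stood at 100 ± 7.2 TPM, below Gapdh at 152 ± 9.3 TPM. The glucose transporters at 118 ± 6.0 TPM, the mutase Pgam1 at 117 ± 11.9 TPM, the kinase Pgk1 at 102 ± 3.0 TPM and the hexokinases at 101 ± 4.0 TPM lay close together, and neighbours in this order overlapped. Tpi1, which interconverts the triose phosphates, was lowest of the enzymes of the main chain with 81.2 ± 10.7 TPM, and its range lay below that of the hexokinases.

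For each step with several genes, paralogs were compared within the same library. Of 27 pairs, 20 were apart, meaning that 1 gene was the higher in each library, that its lowest library lay above the highest library of the other gene, and that the bounds which the authors give for TPM were separate in each library. These bounds do not always hold the TPM they stand beside. For Eno1 in library 1, TPM was 715 and the bounds were 658 and 682. The condition on bounds therefore does not measure the error of the TPM values compared. Pairs of other genes were not set beside these 27, so whether 20 is usual was not tested. Differences are given as log2(TPM + 1). With 3 libraries, an exact permutation test that flips signs (two-sided) cannot give a p below 0.25, so no pair could pass 0.05. That smallest value was reached by 22 pairs (0.307 after Benjamini-Hochberg adjustment over the 27), and 5 pairs had an exact permutation p of 0.5 before and after adjustment. The libraries are technical, so these errors say nothing about variation between mice.

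**Figure D2:**
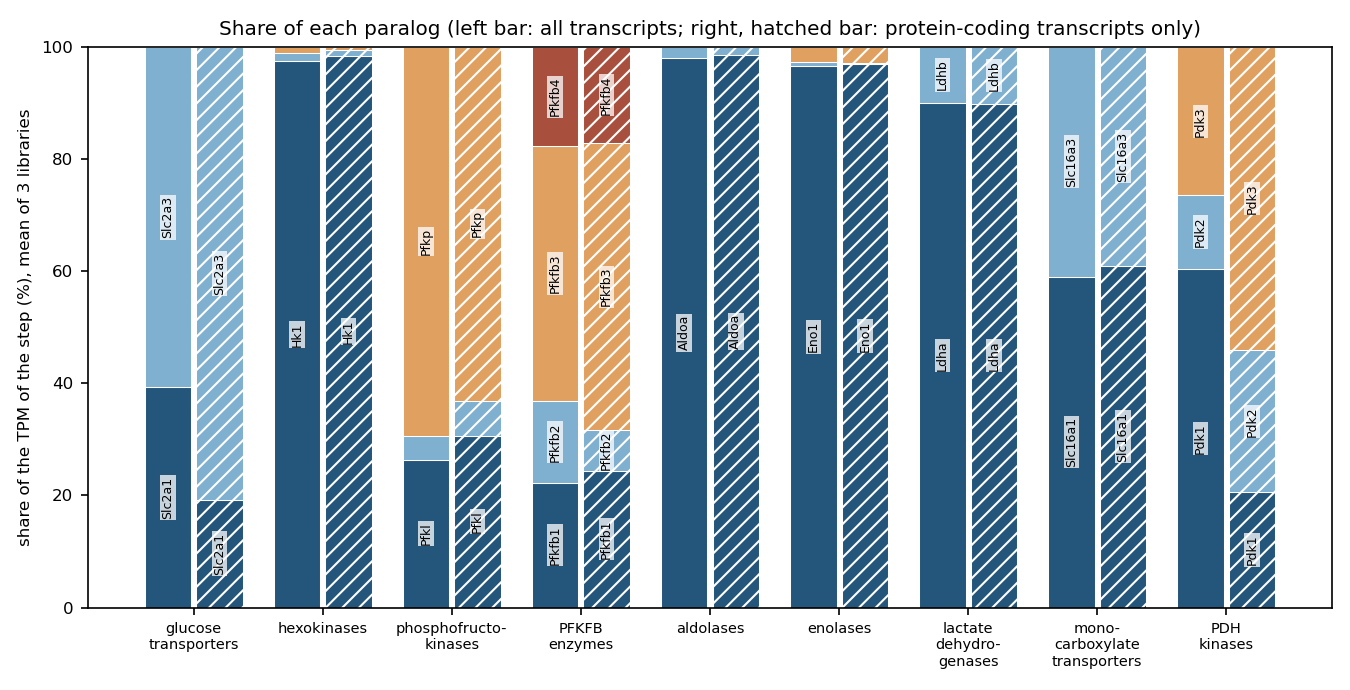
Share of each paralog in the summed TPM of its step (percent, mean of 3 libraries), with all transcripts counted in the left bar of each pair and only transcripts annotated as protein-coding in the right, hatched bar. Hk1, Aldoa, Eno1 and Ldha fill most of both bars, while Slc2a1 and Pdk1 take a smaller share when only protein-coding transcripts are counted.

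Glucose enters T cells through the facilitative carriers GLUT1, encoded by Slc2a1, and GLUT3, encoded by Slc2a3. Slc2a3 stood at 74.3, 68.5 and 71.3 TPM in libraries 1 to 3. Slc2a1 stood at 46.6, 53.0 and 39.6 TPM. Slc2a3 was thus higher in each library, took 60.7 ± 4.01% of the sum of both, and exceeded Slc2a1 by 1.54-fold (log2 difference of Slc2a1 minus Slc2a3 -0.62 ± 0.24). In the whole-number counts against the older annotation M4, per kilobase, this order turned around (0.19 ± 0.15). Only 35.5 ± 3.88% of the Slc2a1 TPM fell on transcripts annotated as protein-coding, and on those Slc2a3 was 4.20-fold higher. Counting protein-coding transcripts alone, here and for other pairs, was an alternative chosen after seeing the data, and it leaves out the condition on bounds.

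Glucose is trapped by hexokinases. Hk1, the widely expressed mitochondria-bound form, stood at 99.0, 103 and 93.5 TPM and made up 97.5 ± 1.33% of hexokinase TPM. Hk2, a form that activated and cancerous cells often induce, stood at 2.12, 0.91 and 1.25 TPM, with 138, 97 and 134 counts. It fell just outside the detection limit because of library 2. Hk3, known from myeloid cells, had 38, 1 and 70 counts and levels of 1.53, 0.14 and 1.59 TPM. Hk2 and Hk3 were not apart, with a log2 difference of 0.28 ± 0.47, and Hk3 was the higher in library 3. Myeloid markers summed to 3.07, 0.89 and 4.06 TPM and neutrophil markers to 1.33, 0.32 and 0.99 TPM. None of the 8 myeloid or 7 neutrophil markers was detected, and Cd14, Elane and Ly6g had no counts. These sums were lowest in library 2, where Hk3 was also lowest. Their part in the level of Hk3 was not tested.

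Hk1 transcripts came mainly from 2 annotated starts. Hk1-201, which starts at chr10:62358362 on the minus strand of mm10, took 49.4, 57.0 and 48.9% of the TPM of the gene, and Hk1-202, which starts at chr10:62340542, took 41.2, 38.2 and 42.1%. Hk1-203, which starts upstream of both at chr10:62379908 and has a coding sequence as long as that of Hk1-201 (2835 bases), was listed at 0 in all libraries. The coding sequence of Hk1-202 is 2754 bases long. Gpi1, the isomerase that makes fructose-6-phosphate, stood at 271, 233 and 218 TPM, of which 41.8 ± 2.37% fell on its protein-coding transcript Gpi1-201. That transcript held 65.0, 70.3 and 68.0% of the expected counts of the gene in libraries 1 to 3.

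The phosphofructokinase step commits sugar to glycolysis, and its subunits come from 3 genes. The platelet type Pfkp stood at 144, 152 and 131 TPM. The liver type Pfkl stood at 55.6, 54.3 and 52.0 TPM. The muscle type Pfkm stood at 9.68, 9.93 and 6.21 TPM. The order Pfkp over Pfkl over Pfkm held in every library, and all 3 pairs were apart. Pfkp made up 69.4 ± 0.777% of the TPM of the 3 genes, Pfkl 26.4 ± 1.21% and Pfkm 4.17 ± 0.763%. Pfkp exceeded Pfkl by 2.64-fold and Pfkl exceeded Pfkm by 6.27-fold. The order held in M4 counts per kilobase too, with Pfkm minus Pfkp at -3.18 ± 0.26 against -3.92 ± 0.24 in TPM. Exons of Pfkm overlap Senp1 and exons of Pfkp overlap Pitrm1, each on the opposite strand. Whether counting used strand is not given in the sources used here, so reads in such overlaps may not be told apart.

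Fructose-2,6-bisphosphate, the strongest activator of phosphofructokinase, is made and degraded by the bifunctional PFKFB enzymes. All 4 genes were low, with 25.4 ± 2.69 TPM in sum. Pfkfb3, the form with the highest kinase over phosphatase activity, stood at 9.04, 14.2 and 11.7 TPM and was apart from each of the other 3. In M4 counts per kilobase, however, Pfkfb1 was the higher of Pfkfb1 and Pfkfb3 on average (0.24 ± 0.24, against -0.93 ± 0.31 in TPM). Pfkfb1 stood at 5.38, 7.27 and 4.31 TPM and Pfkfb4 at 5.03, 3.70 and 4.50 TPM. Pfkfb2 stood at 3.08, 2.74 and 5.29 TPM. No pair among Pfkfb1, Pfkfb2 and Pfkfb4 was apart, and in each of these pairs library 3 had the opposite sign to library 2. In M4 counts per kilobase, Pfkfb1 minus Pfkfb2 was 2.45 ± 0.43, Pfkfb1 minus Pfkfb4 was 1.06 ± 0.58 and Pfkfb2 minus Pfkfb4 was -1.39 ± 0.31. Pfkfb3 took 45.4 ± 5.33% of the sum. Exons of Pfkfb1 overlap Apex2 and those of Pfkfb2 overlap Yod1 on the opposite strand.

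Aldolase splits fructose-1,6-bisphosphate. Aldoa, the form of muscle and most other tissues, stood at 538, 519 and 467 TPM and the brain form Aldoc at 7.94, 11.4 and 9.90 TPM. Aldoa made up 98.1 ± 0.378% of the sum, 52.2-fold above Aldoc (log2 difference 5.58 ± 0.29, and 3.22 ± 0.22 in M4 counts per kilobase). Its TPM fell mainly on Aldoa-201 with 49.4 ± 2.25% and Aldoa-203 with 36.1% on average, which start at chr7:126799254 and chr7:126800447 (minus strand, mm10) and have coding sequences of equal length. Tpi1 stood at 92.6, 79.6 and 71.3 TPM, highest in library 1.

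In the payoff steps, Gapdh makes NADH and Pgk1 makes ATP. Gapdh stood at 228, 203.5 and 214 TPM, Pgk1 at 102, 98.2 and 104 TPM and Pgam1 at 127, 119 and 104 TPM. Several of these genes have near-identical copies elsewhere in the genome, among which reads can be split. Of all 50-base windows of the leading protein-coding transcript, 90.4% occurred in another gene for Gapdh, 72.2% for Eno1, 68.0% for Pgk1, 41.5% for Pgam1 and 34.4% for Pkm. Gapdh shared windows with 218 other genes, 213 of them pseudogenes, and these received 27.8, 26.9 and 26.4% of the counts of Gapdh and the copies combined. For Pgk1 the copies received 4.10, 7.31 and 7.34%, for Eno1 4.76, 4.27 and 4.52%, and for Mpc1, which shares 23.7% of its windows, 8.32, 7.50 and 9.17%. Over all 40 genes, 20 shared no window and 13 shared over 10% of their windows. Exons of Gapdh also overlap Iffo1 on the opposite strand, which held 1125, 1153 and 1495 expected counts in libraries 1 to 3.

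Enolase makes phosphoenolpyruvate. The widely expressed Eno1 stood at 715, 825 and 672 TPM, which was 96.7 ± 0.257% of enolase TPM and highest in library 2. Muscle Eno3 stood at 20.6, 19.3 and 20.5 TPM. Neuronal Eno2 stood at 6.01, 6.91 and 2.93 TPM. The order Eno1 over Eno3 over Eno2 held in every library and all 3 pairs were apart, with Eno1 36.6-fold above Eno3. In the M4 counts per kilobase Eno1 was below Eno3 (-0.43 ± 0.14), and Eno1 minus Eno2 was 2.17 ± 0.42 against 6.93 ± 0.42 in TPM. No count in those tables exceeded 13489, while the expected counts of Eno1 were 30002 to 30988. The M4 totals were also lower, at 8945992 to 9904722 against 31611422 to 37728241 gene counts. These raw counts are therefore not on 1 scale, and the cause of the reversal was not tested. The 6 striated muscle markers summed to 3.29, 5.75 and 3.28 TPM with 1 of 6 detected, and Mb was at 0 in libraries 1 and 3. Their part in the levels of Eno3 and Pfkm was not tested.

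Pyruvate kinase is encoded by Pkm, whose transcripts carry either of a pair of mutually exclusive exons, and stood at 706, 683 and 625 TPM. The M1 exon gives the constitutively active enzyme of muscle and brain. The M2 exon gives the form of proliferating cells, whose activity is regulated. Both exons are 167 bases long and lie on the plus strand of mm10, the M1 exon at chr9:59675029-59675195 and the M2 exon at chr9:59675568-59675734. They are printed here because they define the forms, and capitals mark the 64 positions at which they differ (identity 61.7%).
Pkm M1 exon: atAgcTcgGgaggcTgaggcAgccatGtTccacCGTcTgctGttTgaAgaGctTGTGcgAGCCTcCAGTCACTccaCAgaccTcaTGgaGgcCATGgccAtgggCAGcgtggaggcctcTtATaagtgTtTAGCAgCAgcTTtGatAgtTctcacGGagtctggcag
Pkm M2 exon: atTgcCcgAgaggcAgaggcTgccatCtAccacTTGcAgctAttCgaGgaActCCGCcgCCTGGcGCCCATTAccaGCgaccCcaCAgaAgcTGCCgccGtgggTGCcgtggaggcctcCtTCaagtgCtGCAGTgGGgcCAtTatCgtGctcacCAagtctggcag

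The M2 form was by far the more abundant. Pkm-201, the transcript with the M2 exon, took 90.04, 92.5 and 92.2% of the TPM of the gene in libraries 1 to 3, and Pkm-202 and Pkm-203, the transcripts with the M1 exon, took 7.74, 6.55 and 6.32% together. In TPM the M2 form stood at 614 ± 33.3 and the M1 form at 46.3 ± 7.75, a 13.3-fold difference. The log2 difference was 3.71 ± 0.17 with the same sign in 3 of 3 libraries (the same exact permutation test, p = 0.25, the smallest possible). Of the TPM on either exon, 93.0 ± 0.820% fell on M2. Pkm-201 and Pkm-202 also differ outside these exons, with lengths of 2432 and 2041 bases. The shares are model estimates over whole transcripts and need not rest on the exons alone. The remaining transcripts hold neither exon, and of these Pkm-205, a retained intron, took 1.31 ± 0.466%. Even the minor M1 form, at 39.4 to 54.7 TPM, lay above the 24.1 TPM of the median detected gene. Exons of Pkm overlap Gm49759 on the same strand, which held 987, 571 and 660 expected counts in libraries 1 to 3. The part of this overlap in the level and shares of Pkm was not tested.

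**Figure D3:**
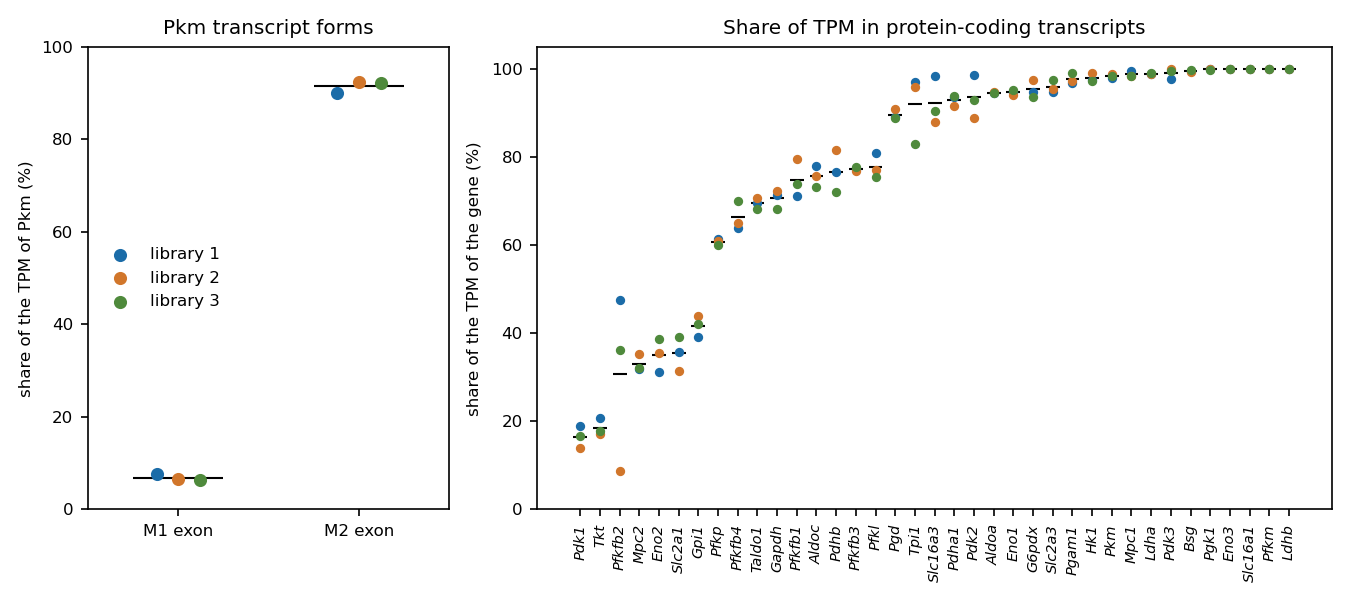
Left, share of the TPM of Pkm (percent) on transcripts with the M1 or the M2 exon; right, share of each detected gene's TPM (percent) on transcripts annotated as protein-coding, genes in order of their mean. Points are libraries 1 to 3 and black bars their means; the M2 form lies above 90% in each library, and the 7 genes at the left of the right panel have means below 50%.

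Lactate dehydrogenase A, the subunit that favours lactate formation, was the highest of the 40 genes. Ldha stood at 806, 854 and 799.8 TPM and ranked 118 among protein-coding genes by mean. Ldhb, the subunit that favours the reverse reaction, stood at 96.8, 87.8 and 89.2 TPM. Ldha was 8.99-fold higher (log2 difference 3.15 ± 0.11) and made up 89.98 ± 0.703% of the TPM of both, with little spread between libraries. In M4 counts per kilobase the log2 difference was 0.50 ± 0.10, with the same direction in 3 of 3 libraries but a far smaller size.

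Lactate leaves cells through the monocarboxylate transporters MCT1, encoded by Slc16a1, and MCT4, encoded by Slc16a3. Their transcripts were far fewer than those of lactate dehydrogenase. Slc16a1 stood at 16.1, 15.6 and 15.5 TPM. Slc16a3, the carrier typical of strongly glycolytic cells, stood at 16.2, 9.58 and 8.18 TPM. The genes were nearly equal in library 1 and Slc16a1 was higher in libraries 2 and 3, so the pair was not apart (log2 difference 0.49 ± 0.45, and 0.01 ± 0.48 in M4 counts per kilobase). Bsg encodes basigin, the chaperone that brings both carriers to the membrane, and stood at 213, 223 and 210.2 TPM. The other chaperone, embigin (Emb), stood at 125, 99.8 and 76.1 TPM, highest in library 1. The shares of the Bsg transcripts differed more between libraries than the gene total did. The scaled gene total differed 1.07-fold between the highest and lowest library (chi-square test against Poisson noise, adjusted p = 0.00122). Bsg-205, with a coding sequence of 819 bases, took 52.2, 44.2 and 76.5% of the TPM, and Bsg-202, with 654 bases, took 44.9, 53.0 and 20.7%. Library 3 thus stood apart from the others in the transcript shares more than in the gene, though transcripts were not tested between libraries. It is also the library with salivary gland transcripts, whose part in this was not tested.

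Pyruvate enters mitochondria through a carrier of 2 different subunits. Mpc1 stood at 112, 122 and 103 TPM and Mpc2 at 107, 117 and 97.5 TPM. The subunits were not apart, with a log2 difference of 0.07 ± 0.01, and Mpc1 was slightly higher in each library. Inside, the E1 component of pyruvate dehydrogenase is built from an alpha and a beta subunit. Pdha1 stood at 114, 128 and 114 TPM and Pdhb at 126, 140.5 and 123 TPM. These were not apart either, with a log2 difference of -0.13 ± 0.03. The direction of the Pdha1 and Pdhb difference turned around without length correction (0.61 ± 0.04), in M4 counts per kilobase (0.10 ± 0.06) and when only protein-coding transcripts were counted (0.15 ± 0.12). Mpc2 was far above Mpc1 in M4 counts per kilobase (-2.92 ± 0.08), but 3.12-fold below it when only protein-coding transcripts of the M21 annotation were counted. The cause was not tested.

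The kinases that inactivate pyruvate dehydrogenase were led by Pdk1 in gene totals. Pdk1, a known target of hypoxia-inducible factor, stood at 83.1, 84.3 and 73.4 TPM. Pdk3 stood at 38.5, 36.3 and 30.6 TPM and Pdk2 at 15.4, 17.2 and 19.4 TPM. The order Pdk1 over Pdk3 over Pdk2 held in each library, with shares of 60.4 ± 0.888, 26.4 ± 1.67 and 13.1 ± 2.34%. In M4 counts per kilobase Pdk1 and Pdk3 were nearly equal (log2 difference 0.06 ± 0.05), and Pdk1 minus Pdk2 was 1.24 ± 0.26. Pdk4, the form induced by fasting and fatty acids, had 7, 0 and 1 counts. In library 2 this allows up to 3 counts, a limit that covers counting error only.

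The order of the kinases also depended on which transcripts were counted. Only 16.5 ± 2.44% of the Pdk1 TPM fell on its protein-coding transcript. When protein-coding transcripts alone were counted, Pdk1 stood at 13.3 ± 2.10 TPM, below Pdk3 at 34.8 ± 3.80 TPM and near Pdk2 at 16.2 ± 1.67 TPM. The log2 difference of Pdk1 minus Pdk3 then turned from 1.17 ± 0.08 to -1.33 ± 0.18, and that of Pdk1 minus Pdk2 from 2.15 ± 0.26 to -0.27 ± 0.29.

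Other genes had such transcripts too. Protein-coding transcripts held under 50% of the TPM in 7 detected genes, namely Pdk1, Tkt (18.6 ± 2.01%), Pfkfb2 (30.9 ± 20.0%), Mpc2 (33.1 ± 1.98%), Eno2 (35.2 ± 3.78%), Slc2a1 and Gpi1, and at least 90% in 20. In 6 of the 37 detected genes the leading transcript was not annotated as protein-coding. These were Slc2a1-204 (64.5 ± 3.88% of TPM, annotated for nonsense-mediated decay), Tkt-209 (64.7 ± 2.62%), Mpc2-203 (65.0 ± 2.80%), Pdk1-208 (41.2 ± 4.05%), Pfkfb2-206 (59.0 ± 12.9%, nonsense-mediated decay) and Eno2-203 (32.9 ± 2.47%, a retained intron). Of the expected counts of its gene, Mpc2-203 (493 bases) held 44.2, 42.2 and 45.5% in libraries 1 to 3. Pfkfb2-206 (768 bases) held 16.2, 39.9 and 22.0%, from 23, 28 and 52 counts. The count share was also below the TPM share for Slc2a1-204, and above it for Tkt-209, Pdk1-208 and Eno2-203. In the authors' posterior mean TPM, Eno2-203 took 13.9, 20.7 and 14.7%, and the others moved less. The numbers of genes were not set beside all detected genes, so whether they are usual was not tested. The shares come from a model that divides reads among overlapping transcripts. Most of these transcripts have little sequence of their own, and Pfkfb2-206 is the exception. Of the 50-base windows of Slc2a1-204, 97.8% also occurred in protein-coding transcripts of Slc2a1. The same share was 96.8% for Pdk1-208, 95.6% for Tkt-209, 88.2% for Eno2-203, 82.4% for Mpc2-203 and 23.1% for Pfkfb2-206.

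The oxidative arm of the pentose phosphate pathway opens with G6pdx, the glucose-6-phosphate dehydrogenase that makes NADPH, at 38.9, 40.9 and 42.4 TPM. Pgd, which makes the second NADPH, stood at 62.8, 59.9 and 55.0 TPM. The sugar-exchanging enzymes of the other arm were higher, with Tkt (transketolase) at 187, 166 and 163 TPM and Taldo1 (transaldolase) at 267, 276 and 246 TPM. The order Taldo1 over Tkt over Pgd over G6pdx held in each library and no ranges overlapped. On protein-coding transcripts alone, Tkt stood at 32.1 ± 5.97 TPM, below Pgd at 53.1 ± 3.69 TPM. Exons of G6pdx overlap Ikbkg on the opposite strand, which stood at 29.7 to 36.7 TPM.

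Further genes were examined in 5 lists. Of 29 genes listed beside glycolysis and gluconeogenesis, not all of them enzymes of these pathways, 17 were detected. The highest were Galt at 62.1 ± 4.36 TPM, Adpgk at 48.0 ± 9.90 TPM, Pgam5 at 47.9 ± 6.91 TPM and Galm at 43.8 ± 3.10 TPM. G6pc, the glucose-6-phosphatase of liver, had 0, 0 and 1 counts in libraries 1 to 3. Of 17 other transporters and chaperones, 6 were detected, and after Emb came the monocarboxylate transporter Slc16a6 at 13.5 ± 1.80 TPM, the sugar transporter Slc2a8 at 9.46 ± 2.47 TPM and the urate transporter Slc2a9 at 6.75 ± 2.25 TPM. Slc2a10 and Slc2a12 were lowest, at 0.117 ± 0.139 and 0.117 ± 0.120 TPM.

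Of 14 other enzymes of pyruvate and lactate, 9 were detected. They were led by the malic enzyme Me2 at 74.3 ± 4.53 TPM, and by Dld at 69.3 ± 4.94 TPM, Dlat at 32.9 ± 0.635 TPM and Pdhx at 17.6 ± 5.22 TPM, which complete the pyruvate dehydrogenase complex. Pdha2, the testis form of E1 alpha, had no counts, and Ldhc, the testis lactate dehydrogenase, had 3, 0 and 0. Of 11 other pentose phosphate genes, 9 were detected. The lactonase Pgls, which acts between G6pdx and Pgd, stood at 104 ± 13.6 TPM, Prps1 at 64.3 ± 7.01 TPM, Prps2 at 45.3 ± 1.89 TPM and Rpe at 41.3 ± 1.94 TPM. Tktl2 was lowest with 0.110 ± 0.157 TPM, followed by Prps1l1 at 0.940 ± 0.0656 TPM.

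Of 22 regulators of glucose metabolism, 16 were detected. Txnip, which restrains glucose uptake, was highest with 679, 632 and 545 TPM, close to the level of Pkm. Hif1a, the oxygen-regulated subunit of hypoxia-inducible factor, stood at 213 ± 28.4 TPM, and Myc and its partner Max at 131 ± 15.4 and 131 ± 9.33 TPM. Prkaa2 and Mlxipl were lowest with 0.0933 ± 0.0764 and 0.200 ± 0.0721 TPM.

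Promoter sequences from RefSeq (assembly GRCm38.p6, 250 bases before to 50 bases after each start) were matched for 38 of the 40 genes, as 59 promoters. Some windows of the same gene overlap, as do those of Eno1 that start at chr4:150236947 and chr4:150236974. The same match can therefore count more than once. In 30 genes the leading protein-coding transcript starts within such a window. The core of the hypoxia response element, searched on both strands as ACGTG or GCGTG, was present in 76.3% of these promoters and in 43.8% of all 32851 promoters. The E-box CACGTG, which contains ACGTG and is bound by Myc and Max among others, was present in 10.2% against 7.15%. It lay in promoters of Ldha, Pdk2, Pfkfb2, Pfkfb3, Pfkm and Slc16a1. For Pfkfb2 and Pfkfb3, the window with the E-box does not hold the start of the leading protein-coding transcript. The GC box GGGCGG was present in 54.2% against 35.7%, and TATAAA in 5.08% against 13.6%. Such short matches occur often, depend on base composition and are a description of the sequence only.

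Most of the 40 genes differed between libraries by more than counting noise, as most genes did at this depth. Of the 39 genes whose mean count was 10 or more, 34 were called by a chi-square test of TMM-scaled counts against Poisson noise (Benjamini-Hochberg adjusted p under 0.05 over all genes), where 77.0% of 18253 genes were called. Where the mean count was 1000 or more, 24 of 27 were called, where 84.4% of all such genes were, so the share lies near the background. The sizes were small. The ratio of the highest to the lowest library had a median of 1.13 over the 39 genes and 1.12 over the 27, against 1.37 and 1.14 over all genes of the same counts. Pdk1, Hk2, Slc16a1, Pgd and Eno3 were not called, with ratios of 1.03, 1.24, 1.06, 1.04 and 1.15. The test compares these libraries and no conditions, and without library 1 it called 22 of the 39 genes, where 57.7% of all genes were called.

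A ratio of at least 2 was found in 3 genes, Hk3, Pfkfb2 and Eno2, where 29.6% of the 18253 genes had such a ratio. All 3 had mean counts under 1000. Between mean counts of 100 and 1000, where Pfkfb2 and Eno2 lie, 12.9% of genes had such a ratio, and from 1000 on 0.461% did. Pfkfb2 had 143, 70 and 236 counts and was 2.92-fold higher in library 3 than in library 2 after scaling (chi-square adjusted p = 1.31e-15). Eno2 had 244, 304 and 139 counts and was 2.53-fold higher in library 2 than in library 3 (adjusted p = 1.23e-18). Slc16a3 followed with 776, 382 and 429 counts and a 1.83-fold ratio, high in library 1 (adjusted p = 3.79e-30). Next came Pfkfb1 with 1.65-fold and Pfkfb3 with 1.62-fold, both highest in library 2. Library 3, highest for Pfkfb2 and lowest for Eno2, is the library with salivary gland transcripts, and their part in these ratios was not tested.

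**Figure D4:**
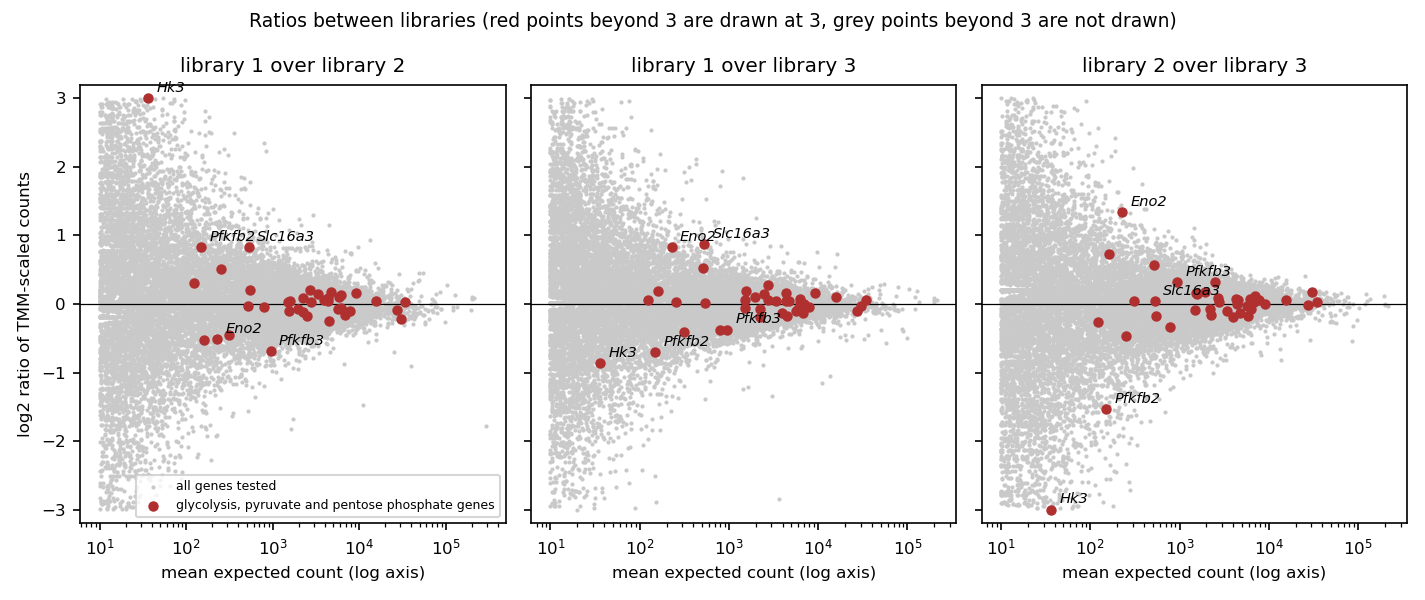
Log2 ratios of TMM-scaled counts between each pair of libraries against the mean expected count (log axis), with the 39 tested genes in red and all 18253 tested genes in grey. The red points narrow towards 0 with rising counts as the grey cloud does; Hk3, Pfkfb2, Eno2, Slc16a3 and Pfkfb3 are named.

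The genes were split between both directions in each comparison of libraries. Of the 39, 21 were higher in library 1 than in library 2, where 51.8% of all genes were. In library 1 over library 3 there were 22, where 50.1% of all genes were, and in library 2 over library 3 there were also 22, where 48.3% of all genes were. The median log2 ratios of the 39 genes were 0.03 in each of these comparisons, against 0.02, 0.00 and -0.01 over all genes tested. Among the 27 genes whose mean count was 1000 or more, 15, 15 and 16 were higher, where 43.6, 44.5 and 52.6% of all such genes were. The medians were 0.03, 0.04 and 0.03 over the 27, against -0.03, -0.02 and 0.01 over all such genes. The 3 comparisons share libraries.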

How the data were processed

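The members and lists were chosen with earlier results of these data known. Per the file headers, the authors' deposited M21 gene and transcript tables hold expected counts, TPM, FPKM and TPM bounds whose level is not stated, and the transcript tables the percent of a gene's TPM on each transcript (IsoPct). Per the labels the assembly is mm10. The M4 tables deposited beside them hold whole-number counts. Aligner, counting program and strand setting are not given in the sources used here. Effective length is 49 bases below length, so windows of 50 bases were compared. Rows outside the annotation (0.170, 0.170 and 0.218% of expected counts in libraries 1 to 3) stayed out of library sizes.

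Expected counts were rounded and scaled by TMM (edgeR 4.0.16, R 4.3.3; DESeq2 1.42.0 size factors as an alternative). Genes whose mean count was 10 or more were tested by a chi-square test of the 3 libraries against Poisson noise, with 0.5 added in log2 ratios. In Poisson counts simulated for that test on 18253 genes, 57 of 100 genes changed 1.5-fold and 86 of 100 changed 2-fold were called. Of 18053 unchanged genes, 4 were called. Such counts hold only the noise that the test assumes, so few calls among unchanged genes follow from the setting. They do not measure false calls in these libraries, where 77.0% of genes were called. Other steps used Python 3.11.15, pandas 2.3.3, numpy 2.4.6, scipy 1.17.1 and matplotlib 3.10.9. Pairs used log2(TPM + 1) and a sign-flip permutation test, folds are ratios of mean TPM, and with 1 group no count model contrast was run. M4 counts were divided by M21 gene lengths. Where a symbol had 2 identifiers (Aldoa), that of higher count was used.

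Named were all 40 genes, the 4 highest and 2 lowest of each pathway list, Pkm transcripts with a mean share of at least 1%, and leading transcripts that are not protein-coding or take under 60% of TPM, of which a selection is printed. 1 gene that this rule covers is not reported here. Overlapping genes, Aldoa-203, Bsg-202, Hk1-202 and Hk1-203 were chosen after their values were seen. Alternatives changed the pseudocount, unit, scaling, annotation, filter, transcripts counted and libraries.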

Additional observations from a re-analysis of the deposited data

Results flagged for a closer look

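Aldoa stands on 2 identifiers in the annotation. The second was not used in any comparison and held 10, 0 and 7 expected counts in libraries 1 to 3, against 14267 to 16811 for the first, which is above the limit of 3 counts that a count of 0 allows in libraries 1 and 3.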

How the results depend on the processing

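Of 243 pair differences recomputed under alternatives, 11 changed sign. In M4 counts per kilobase, the log2 differences were 0.19 for Slc2a1 minus Slc2a3, -0.30 for Hk2 minus Hk3, 0.24 for Pfkfb1 minus Pfkfb3, -0.43 for Eno1 minus Eno3, 0.10 for Pdha1 minus Pdhb and -2.92 for Mpc1 minus Mpc2. Without length correction they were -0.54 for Pfkfb1 minus Pfkfb4 and 0.61 for Pdha1 minus Pdhb. With protein-coding transcripts only, they were -0.27 for Pdk1 minus Pdk2, -1.33 for Pdk1 minus Pdk3 and 0.15 for Pdha1 minus Pdhb. The cause was not tested. The median of the 40 genes was 71.8 in the authors' posterior mean TPM and 47.2 in FPKM, which has another total. Of the 39 genes tested, 18 differed between libraries in the M4 counts, whose totals are lower, where 51.9% of all genes did. Without 1 replicate, where 2 libraries are compared, 22 (without library 1) to 27 did, where 48.8 to 60.5% of all genes did. No paired analysis was possible because all libraries belong to 1 group and so share no replicate numbers with another group. The pairing within a library was between genes only. Depth limits Hk3 and Pdk4, which had 0 or 1 count in a library.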
